A study of Mus musculus with 13 samples.

Results

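The cell division genes described here are 44 mouse genes that act in DNA replication or in mitosis, taken as a list of symbols and looked up by gene identifier in a table of gene counts. All 44 were found, each with a single identifier, among 34013 genes, and 27 of them are called mitotic below and 17 S-phase. RNA was sequenced in bulk from the fat around blood vessels, perivascular adipose tissue, of C57BL/6 mice that were given spleen cells. Group WTS-R (3 libraries) received cells of wild-type donors, NS-R (3 libraries) cells lacking Nlrp3, a sensor of the inflammasome, TS-R (4 libraries) cells of donors with type 2 diabetes, and NTS-R (3 libraries) cells of diabetic donors that also lacked Nlrp3. The genotype field reads WT for WTS-R and TS-R and Nlrp3 KO for NS-R and NTS-R, with no word on whether donor or recipient is meant. How the diabetes was made, how many cells were given, the time since transfer, age and sex are not given by the labels, and nothing ties a library to an animal, which means that p-values here speak only of how far these libraries scatter, and part of that scatter may be technical. The stated question was how diabetic immune cells affect this fat.

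A cell that divides first copies its DNA in S phase and then separates the copies in mitosis. The S-phase genes make the MCM helicase that opens the double helix, the factors that load and fire it at replication origins, the sliding clamp and the enzymes that supply nucleotides, and many of them are switched on by E2F factors at the start of S phase. The mitotic genes make cyclins, kinases, kinetochore and spindle proteins, and are transcribed late in the cycle, when the MuvB complex with B-MYB and FOXM1 acts through a short element, the CHR (cell cycle genes homology region), often near CCAAT boxes bound by NF-Y. Mature adipocytes rarely divide, whereas activated lymphocytes divide quickly, so in bulk fat many of these transcripts may come from a minority of cells. Which cells made them was not measured here. Bulk counts cannot tell more cells of a type from more RNA per cell.

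The promoters of the 2 kinds of gene were compared first, for the letters of the elements named above. RefSeq windows on GRCm38.p6, each with 250 bases before and 50 bases after the start, were matched by symbol for 37 of the 44 genes, 23 mitotic and 14 S-phase, in 40 windows. No window was matched for Aurkb, Ccna2, Exo1, Gins2, Kif20a, Mcm4 and Tpx2. The letters searched on both strands were TTTGAA and TTCGAA for the CHR, CCAAT for the CCAAT box, and TTTCCCGC, TTTGGCGC, TTTCGCGC and TTTGCCGC for E2F. E2F letters can overlap each other. The 150 bases before the start are shown for 4 mitotic genes, with CHR, CCAAT and E2F letters of either strand in capitals; these were chosen after the search, to show how the elements lie.
Mki67, chr7:135716380-135716529, minus strand: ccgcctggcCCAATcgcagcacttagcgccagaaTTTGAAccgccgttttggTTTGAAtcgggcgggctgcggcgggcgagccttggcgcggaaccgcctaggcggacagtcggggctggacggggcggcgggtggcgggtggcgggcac
Top2a, chr11:99024190-99024339, minus strand: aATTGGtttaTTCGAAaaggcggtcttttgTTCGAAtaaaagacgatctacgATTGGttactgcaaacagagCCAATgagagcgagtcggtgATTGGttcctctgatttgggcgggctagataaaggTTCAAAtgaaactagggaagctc
Cdk1, chr10:69352913-69353062, minus strand: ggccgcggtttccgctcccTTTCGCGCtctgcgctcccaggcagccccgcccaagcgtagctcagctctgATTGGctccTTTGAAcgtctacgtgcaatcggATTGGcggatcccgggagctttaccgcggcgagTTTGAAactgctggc
Cdc20, chr4:118437344-118437493, minus strand: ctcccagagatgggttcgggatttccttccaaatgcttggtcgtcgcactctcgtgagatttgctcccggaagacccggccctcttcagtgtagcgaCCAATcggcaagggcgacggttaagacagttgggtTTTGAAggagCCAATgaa
In Cdk1 and Cdc20 a CHR match began 15 and 18 bases before the start, with a CCAAT match 48 and 53 bases before it. Mki67 and Top2a held several CHR matches, the nearest 98 and 23 bases before the start. The same stretch is shown for 4 S-phase genes, chosen to include genes with E2F letters and one, Pcna, without them.
Mcm5, chr8:75109359-75109508, plus strand: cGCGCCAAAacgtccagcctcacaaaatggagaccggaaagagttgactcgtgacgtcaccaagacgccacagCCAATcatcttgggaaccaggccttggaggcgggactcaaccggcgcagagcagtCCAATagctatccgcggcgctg
Mcm6, chr1:128359706-128359855, minus strand: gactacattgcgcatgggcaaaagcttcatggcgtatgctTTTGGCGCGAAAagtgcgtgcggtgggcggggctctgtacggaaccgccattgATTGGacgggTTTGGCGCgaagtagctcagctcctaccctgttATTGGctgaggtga
Cdc6, chr11:98908001-98908150, plus strand: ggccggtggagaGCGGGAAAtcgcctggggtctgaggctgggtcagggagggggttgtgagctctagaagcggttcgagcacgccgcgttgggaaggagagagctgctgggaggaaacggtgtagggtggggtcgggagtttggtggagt
Pcna, chr2:132253181-132253330, minus strand: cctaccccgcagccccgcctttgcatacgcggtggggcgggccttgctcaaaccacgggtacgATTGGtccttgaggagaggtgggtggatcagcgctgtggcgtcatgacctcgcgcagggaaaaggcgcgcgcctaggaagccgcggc
In Mcm6 the E2F letters began 110, 106 and 47 bases before the start, and the first pair overlapped. Mcm5 held overlapping E2F letters that began 153 and 149 bases before the start. The first begins before the stretch shown and the second lies inside it. Cdc6 held a single E2F match 138 bases before the start, and Pcna a single CCAAT match at 87 bases. None of these 4 stretches held a CHR match.

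CHR letters were in 19 of 24 mitotic windows (79.2%) and 3 of 16 S-phase windows (18.8%), against 19.2% of all 32851 RefSeq windows. E2F letters showed the opposite order, with 1 of 24 mitotic windows (4.17%), 6 of 16 S-phase windows (37.5%) and 2.26% of all windows. CCAAT letters were in 79.2% of mitotic, 75% of S-phase and 37.4% of all windows, so they did not separate the 2 kinds. A CHR and a CCAAT match together were in 70.8%, 18.8% and 7.52%. The mitotic windows held 27 CHR matches with a median position of -15, and 21 lay within 100 bases of the start. The 2 windows of Prc1 overlap, so its 1 CHR site is counted in both. A match is only a run of letters, and no match says only that these letters are not in this window.

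**Figure D1:**
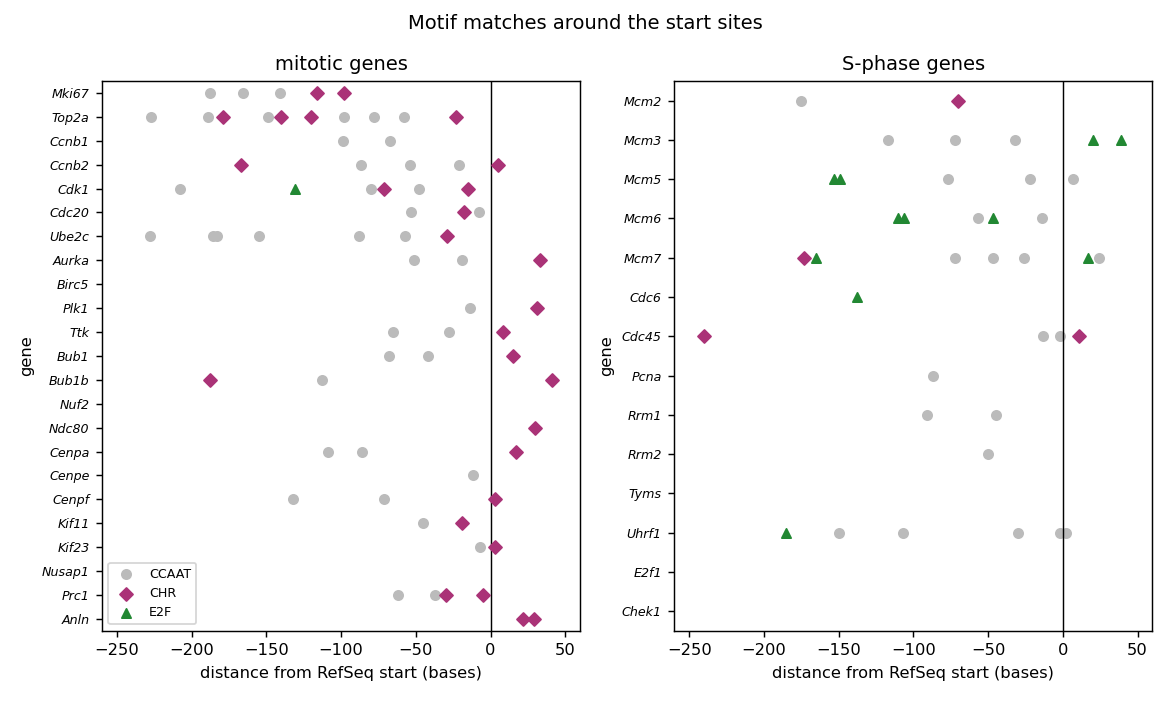
Positions of CHR (diamonds), CCAAT (circles) and E2F (triangles) letters on either strand, in bases from the RefSeq start, with 1 row per gene that had a window; genes with 2 windows have both on their row. CHR matches appear on most mitotic rows and cluster around the start, and E2F matches appear mainly on S-phase rows.

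The libraries held 14216706 (NTS-R replicate 3) to 37011122 (NS-R replicate 1) counts, so that 3 counts, the limit a count of 0 allows, equal 0.0778 to 0.242 CPM (counts per 1000000 of the TMM-scaled library); this covers counting error alone. Some libraries stood apart before any comparison. Xist reached 664 CPM in replicate 3 of TS-R and 529.5 CPM in replicate 3 of NS-R, and was at most 0.403 CPM in each of the other 11, while the Y-linked Ddx3y was at most 0.0281 CPM in those 2 libraries and at least 48.3 CPM in the others. TS-R replicate 3 also had the lowest summed level of 6 adipocyte markers (4437 CPM against 10686 to 17430.2) and of 7 brown adipocyte markers (839 CPM against 2981 to 7923). Nlrp3 was low in all 4 groups (0.251 to 2.93 CPM) with overlapping ranges, and since its label may describe donors it checks no group.

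Transcripts of cell division were present in every library at low levels, were more abundant in 3 of the TS-R libraries than in the WTS-R libraries, and were far more abundant in the fourth, TS-R replicate 3. The level of a set is the mean over its genes of log2(CPM + 0.5). The mitotic level was 1.4, 1.11 and 1.26 in the WTS-R libraries, 1.47, 1.68 and 1.59 in NS-R, 1.86, 2.61, 4.86 and 1.91 in TS-R, and 1.63, 1.01 and 1.35 in NTS-R. The S-phase level was 2.69, 2.57 and 2.66 in WTS-R, 2.63, 2.77 and 2.81 in NS-R, 2.90, 3.56, 5.36 and 2.90 in TS-R, and 2.81, 2.55 and 2.40 in NTS-R. For both sets, all 4 TS-R libraries lay above all 9 others. The next library after TS-R replicate 3 was TS-R replicate 2 for both sets. TS-R replicates 1 and 4 were above the highest NTS-R library by less than the SD of the NTS-R group.

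TS-R replicate 3 held the highest value of all 13 libraries for 44 of the 44 genes. Leaving that library out, TS-R replicate 2 was highest for 38 genes, TS-R replicate 1 for 4 and NS-R replicate 1 for 2, Cenpa and Anln. The share of all genes that were highest in each of these libraries was not counted, so these counts do not set the members apart from other genes. The value in TS-R replicate 3 was a median of 13.9 times the median of the other 12 libraries over the mitotic genes, from 2.58 times for Cenpa to 26.9 times for Mki67. Over the S-phase genes the median was 7.47 times, from 2.83 times for Pcna to 25.2 times for Exo1. The mean of TS-R replicates 1, 2 and 4 was a median of 2.19 times the WTS-R mean over the mitotic genes (1.06 for Anln to 4.07 for Mki67) and 1.59 times over the S-phase genes (0.787 for Chek1 to 2.72 for Exo1).

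**Figure D2:**
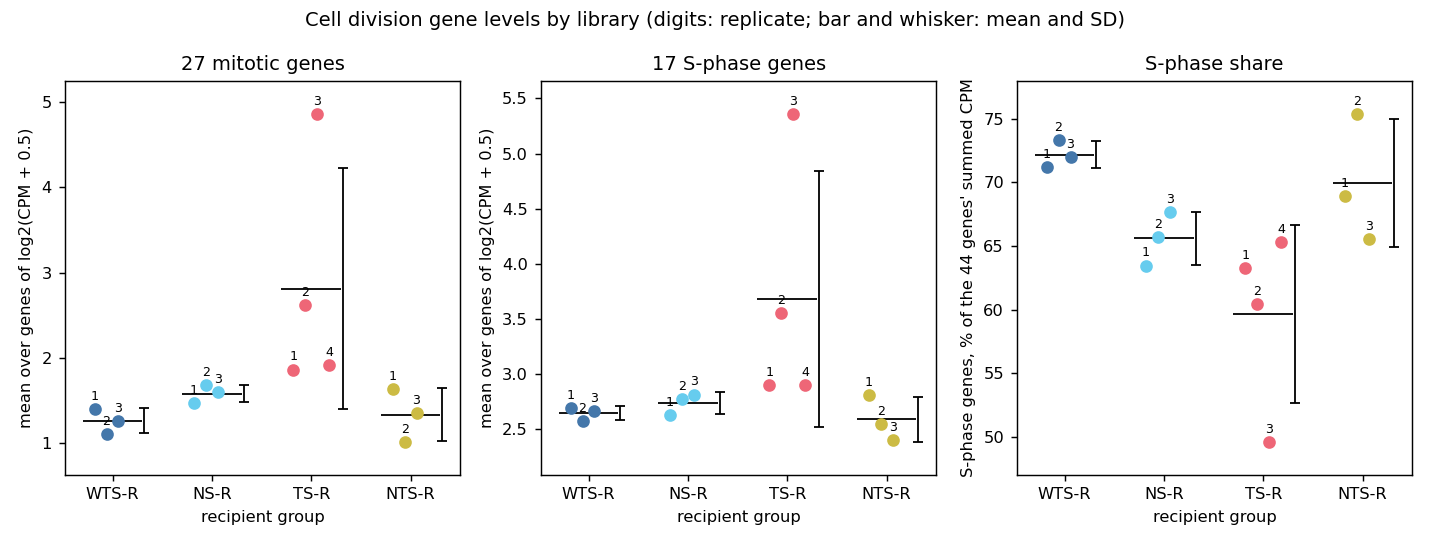
Mean log2(CPM + 0.5) of the 27 mitotic and the 17 S-phase genes, and the S-phase share of their summed CPM in percent, with 1 point per library numbered by replicate, and the group mean and SD. TS-R replicate 3 is the highest point in the first 2 panels (4.86 and 5.36) and the lowest in the third (49.6%).

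The growth fraction gene Mki67, whose protein coats mitotic chromosomes, and Top2a, the enzyme that untangles DNA strands, showed the widest contrast. Mki67 had 5.77, 4.84 and 4.18 CPM across WTS-R, 5.58, 9.09 and 9.19 in NS-R, 16.4, 29.9, 209.9 and 13.9 in TS-R, and 10.3, 2.90 and 6.53 in NTS-R. Top2a had 5.70, 3.96 and 4.76 CPM across WTS-R, 6.33, 7.22 and 8.64 in NS-R, 15.6, 23.5, 166 and 13.2 in TS-R, and 9.88, 4.57 and 5.96 in NTS-R. For both genes every TS-R library was above every library of the other 3 groups. Both had 2 or more CHR matches in their promoter windows, as did the mitotic genes Bub1b, Ccnb2, Anln and Cdk1. Of these, Anln and Cdk1 had the smallest fitted log2 changes of their classes in TS-R against WTS-R (0.58 and 1.79). Cenpe, without a CHR match, had a change of 3.39. A link between CHR matches and the size of the change was not tested.

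Among the cyclins and their kinase, Ccna2 (cyclin A2, active from S phase into mitosis) had 2.82, 1.45 and 1.73 CPM across WTS-R, 2.23, 3.07 and 3.74 in NS-R, 3.21, 7.24, 42.1 and 3.59 in TS-R, and 3.0, 1.22 and 3.38 in NTS-R. Cdk1, the kinase that drives entry into mitosis, had 2.69, 1.38 and 3.79 CPM across WTS-R, 3.29, 3.86 and 2.65 in NS-R, 2.81, 5.78, 23.8 and 3.65 in TS-R, and 3.58, 1.98 and 3.46 in NTS-R. Apart from TS-R replicates 2 and 3, the Cdk1 values of the 4 groups overlapped. The B cyclins, the partners of Cdk1 in mitosis, followed TS-R replicate 3 too, with Ccnb1 at 31.3 and Ccnb2 at 27.9 CPM there. Their WTS-R values were 0.880 to 1.73 CPM for Ccnb1 and 1.47 to 1.99 CPM for Ccnb2.

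Cdc20 and Ube2c work with the anaphase-promoting complex, the ubiquitin ligase that ends mitosis. Cdc20 had 2.05, 2.01 and 1.67 CPM across WTS-R, 2.10, 2.67 and 2.72 in NS-R, 3.32, 6.14, 30.4 and 3.35 in TS-R, and 2.66, 1.52 and 1.53 in NTS-R. All 4 TS-R values were above all others. Ube2c had 2.44, 1.45 and 3.08 CPM across WTS-R, 2.05, 2.84 and 2.72 in NS-R, 2.58, 5.72, 26.7 and 2.62 in TS-R, and 2.02, 1.68 and 1.61 in NTS-R, so that TS-R replicates 1 and 4 lay within the WTS-R range.

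Of the kinases, the spindle checkpoint and the chromosomal passenger complex, Bub1b (the checkpoint protein BubR1) and Birc5 (survivin, a passenger subunit) differed in how far the groups separated. Bub1b had 3.46, 3.08 and 4.82 CPM across WTS-R, 3.55, 4.26 and 4.83 in NS-R, 4.09, 8.51, 43.1 and 5.97 in TS-R, and 3.29, 1.75 and 2.5 in NTS-R. Birc5 had 1.41, 1.13 and 2.44 CPM across WTS-R, 1.35, 2.78 and 1.97 in NS-R, 5.34, 5.47, 30.7 and 3.17 in TS-R, and 2.83, 1.37 and 2.5 in NTS-R. The TS-R values of Birc5 did not overlap those of any other group, whereas TS-R replicate 1 lay inside the WTS-R range for Bub1b. Plk1, a kinase of mitotic entry and spindle assembly, was also higher in every NS-R library (2.70, 3.24 and 1.63 CPM) than in every WTS-R library (1.47, 1.19 and 0.643 CPM). The kinases Aurka, Aurkb and Ttk and the checkpoint kinase Bub1 were at 16.5, 26.2, 7.34 and 16.8 CPM in TS-R replicate 3, and at no more than 5.11 CPM in any other library.

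Among the centromere and kinetochore genes, Cenpa, the histone H3 variant that marks centromeres, had 12.6, 12.6 and 14.3 CPM across WTS-R, 24.3, 13.5 and 9.66 in NS-R, 12.3, 19.2, 33.5 and 13.3 in TS-R, and 8.60, 9.37 and 18.2 in NTS-R, and the groups overlapped. Cenpe, a kinetochore motor, had 1.09, 0.691 and 1.03 CPM across WTS-R, 1.4, 1.48 and 0.953 in NS-R, 2.64, 3.95, 30.0 and 2.5 in TS-R, and 1.79, 1.14 and 0.886 in NTS-R. Its TS-R values were above all others. Nuf2 and Ndc80, subunits of the complex that grips microtubules, and Cenpf were at 20.8, 12.5 and 23.8 CPM in TS-R replicate 3. Divided by the length of the gene's merged exons, Cenpa was the most abundant mitotic gene in WTS-R at 2.24 CPM per kb, whereas in TS-R replicate 3 it was Mki67, at 20.9 CPM per kb, with Cenpa at 5.71.

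Of the spindle and cytokinesis genes, Kif11 (the motor that pushes the poles apart) had 2.44, 2.39 and 1.80 CPM across WTS-R, 2.02, 2.84 and 4.02 in NS-R, 2.67, 8.09, 44.8 and 3.71 in TS-R, and 3.52, 2.29 and 3.38 in NTS-R. Tpx2, which activates Aurora A on the spindle, had 2.44, 1.63 and 1.54 CPM across WTS-R, 2.52, 3.24 and 2.52 in NS-R, 3.95, 7.60, 45.8 and 3.90 in TS-R, and 3.06, 1.52 and 2.42 in NTS-R. The TS-R values of Tpx2 lay above all others, and those of Kif11 overlapped NS-R and NTS-R. Anln, the cytokinesis scaffold anillin, differed from this pattern, with 4.81, 3.83 and 3.15 CPM in WTS-R, 6.85, 6.53 and 3.61 in NS-R, 4.14, 4.87, 10.8 and 3.53 in TS-R, and 3.93, 3.89 and 3.79 in NTS-R. The remaining 4 genes of the class, Kif20a, Kif23, Nusap1 and Prc1, ranged from 0.771 to 6.75 CPM outside TS-R replicate 3 and from 14.8 to 31.9 CPM in it.

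The MCM genes encode the 6 subunits of the replicative helicase. Mcm7 had 22.2, 16.4 and 20.8 CPM across WTS-R, 21.0, 21.2 and 18.4 in NS-R, 31.5, 30.6, 86.5 and 24.5 in TS-R, and 23.3, 17.5 and 15.4 in NTS-R. Mcm6 had 13.3, 9.61 and 16.8 CPM across WTS-R, 16.1, 16.0 and 13.3 in NS-R, 19.2, 30.2, 126 and 15.8 in TS-R, and 15.9, 11.4 and 10.4 in NTS-R. All TS-R values of Mcm7 were above all others, while TS-R replicate 4 lay inside the ranges of WTS-R and NTS-R for Mcm6. The subunits were of unlike abundance in WTS-R, from 0.874 CPM per kb for Mcm2 to 4.47 for Mcm7. They were more alike in TS-R replicate 3, where Mcm2 was at 10.1, Mcm7 at 19.5, Mcm4 at 21.2, Mcm3 at 25.4, Mcm5 at 25.5 and Mcm6 at 27 CPM per kb.

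Of the genes that license and fire origins, Cdc45, a part of the active helicase, had 3.72, 5.59 and 4.56 CPM across WTS-R, 4.12, 6.31 and 5.44 in NS-R, 5.62, 6.93, 20.1 and 5.24 in TS-R, and 4.50, 5.26 and 5.80 in NTS-R. Cdc6, which loads the helicase, had 2.12, 1.76 and 1.99 CPM across WTS-R, 2.83, 2.10 and 2.79 in NS-R, 2.07, 4.74, 17.2 and 2.74 in TS-R, and 1.67, 1.45 and 1.13 in NTS-R. For both genes TS-R overlapped WTS-R. Cdc6 in NTS-R was below every library of NS-R and TS-R. Gins2, a helicase partner, had 1.65, 2.61, 6.81 and 2.01 CPM across TS-R against 2.5, 2.26 and 1.67 across WTS-R.

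Pcna, the sliding clamp, was the most abundant member per length in WTS-R (23.9 CPM per kb) and had the smallest fitted change in TS-R against WTS-R. It had 58.5, 55.0 and 58.5 CPM across WTS-R, 37, 51.7 and 51.8 in NS-R, 40.1, 64.6, 153 and 60.8 in TS-R, and 53.7, 54.8 and 49.9 in NTS-R. Rrm1, the large subunit of ribonucleotide reductase, had 20.6, 22.6 and 17.3 CPM across WTS-R, 19.1, 19.8 and 22.8 in NS-R, 24.6, 28.9, 91.1 and 22.7 in TS-R, and 24.9, 18.7 and 18.7 in NTS-R. TS-R replicate 1 was the lowest TS-R library for Pcna, below all of WTS-R. The small subunit Rrm2, whose level follows the cell cycle more closely than that of Rrm1, had 3.35, 9.37, 49.4 and 5.18 CPM across TS-R, and 2.56, 2.01 and 2.31 across WTS-R, without overlap. Tyms, which makes thymidylate, had 6.81, 6.45, 19.2 and 4.14 CPM across TS-R, and 5.19, 4.90 and 4.37 across WTS-R.

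Uhrf1, which carries DNA methylation through replication, had 10.6, 7.35 and 4.76 CPM across WTS-R, 6.20, 5.80 and 8.37 in NS-R, 11.9, 17.3, 78.8 and 9.5 in TS-R, and 9.12, 6.33 and 5.88 in NTS-R. E2f1, an activator of S-phase genes, had 2.69, 2.39 and 4.43 CPM across WTS-R, 2.44, 3.18 and 4.15 in NS-R, 6.41, 4.01, 17.7 and 3.23 in TS-R, and 2.66, 3.12 and 1.85 in NTS-R. TS-R replicate 4 lay inside the WTS-R range for both genes, and TS-R replicate 2 did so for E2f1. The nuclease Exo1 was at 0.0806 to 0.625 CPM outside TS-R, in part under the limit that a count of 0 allows, and reached 1.64 CPM in TS-R replicate 2 and 8.24 CPM in TS-R replicate 3. The checkpoint kinase Chek1 had 1.22, 2.37, 9.45 and 0.913 CPM across TS-R, and 1.86, 2.20 and 1.67 across WTS-R, so that TS-R replicates 1 and 4 were below all WTS-R libraries.

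**Figure D3:**
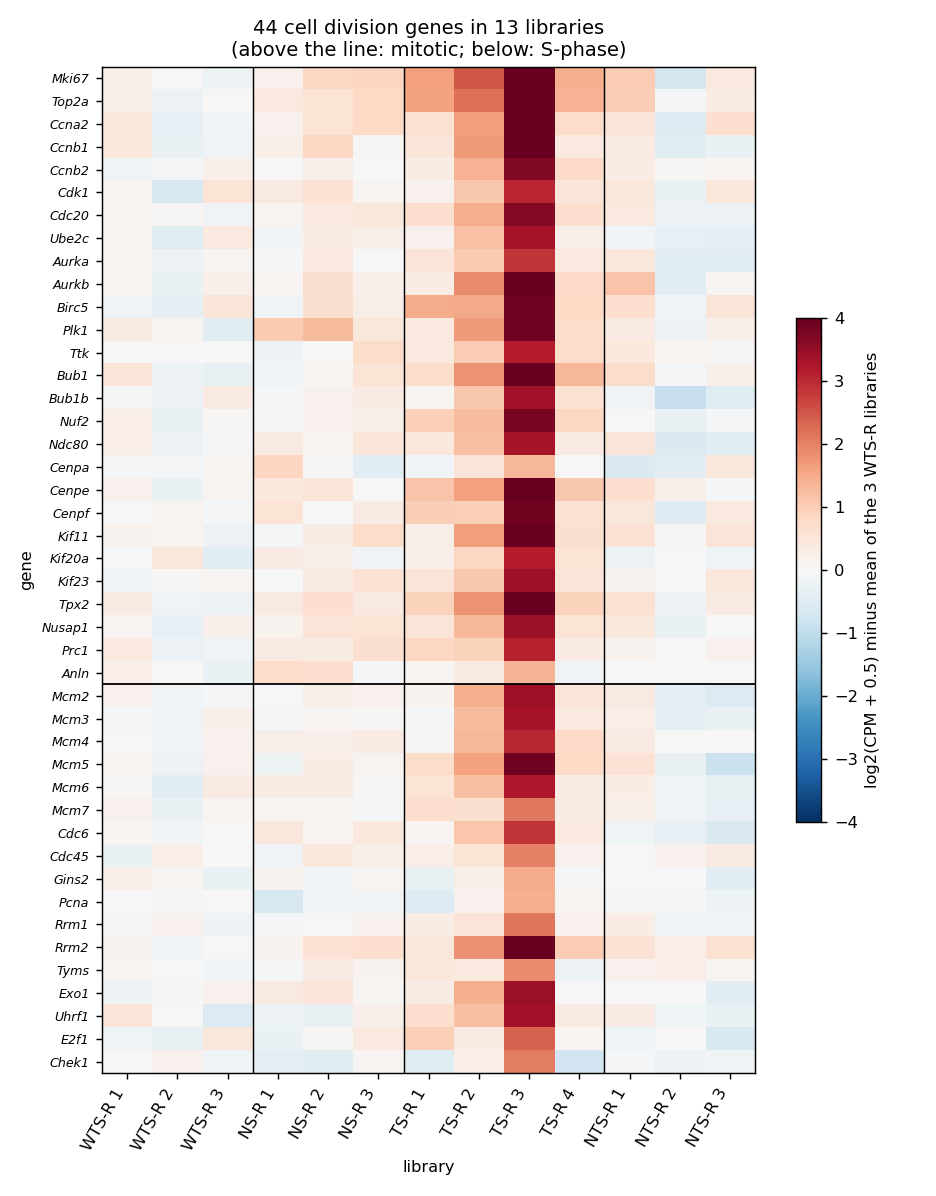
Log2(CPM + 0.5) of each of the 44 genes in each of the 13 libraries, minus the mean of the 3 WTS-R libraries, in colour (red higher, blue lower; the scale ends at 4 and -4). The column of TS-R replicate 3 is red for all genes, that of TS-R replicate 2 is paler, and TS-R replicates 1 and 4 are pale red on most mitotic rows.

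Recipients of diabetic cells were compared with recipients of wild-type cells for the effect of donor diabetes. The fitted log2 change was above 0 for 44 of the 44 genes (52.4% of all 17270 genes tested were above 0), with a median of 2.73 over the mitotic genes, 1.78 over the S-phase genes and 0.03 over all genes. The largest was that of Mki67, at 3.78 (SE 0.93), followed by Top2a at 3.51 (SE 0.84) and Bub1 at 3.43 (SE 0.92), and the smallest that of Pcna, at 0.48 (SE 0.35). In edgeR's quasi-likelihood test no member and no gene of the table passed a Benjamini-Hochberg FDR of 0.05 (0% called; the lowest FDR, shared by Mki67 and Top2a, was 0.0624). At an unadjusted p under 0.05, 39 members were higher, 25 of 27 mitotic and 14 of 17 S-phase, against a background of 15.2%. DESeq2 called 32 of the 41 members to which it gave an adjusted p, 22 mitotic and 10 S-phase, with 9.07% of all genes called higher; it gave none for Nuf2, Cenpe and Cenpf. Limma voom with quality weights called 31 members higher (background 13.5%), and edgeR without the count filter 10 (background 2.42%). By class, DESeq2 called all of the MCM genes (6), cyclins and Cdk1 (4), and kinases, checkpoint and passenger genes (7), and 1 of 3 origin genes and 1 of 4 clamp and nucleotide genes.

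The values of TS-R and WTS-R did not overlap for 23 of the 44 genes, 19 mitotic and 4 S-phase (Mcm5, Mcm7, Rrm1 and Rrm2), with TS-R higher in each; over all genes this held for 8.94%. Leaving out TS-R replicate 3, the top library, cannot lower that count, and the background without it was 10.5% (7.97% for NTS-R below TS-R). It did change the size. Without it the median fitted log2 change was 1.10 for the mitotic genes, 0.59 for the S-phase genes and -0.01 over all genes. Above 0 were 27 of 27 mitotic and 13 of 16 S-phase genes (Exo1 no longer passed the count filter). NS-R against WTS-R gave the same counts above 0 in that fit, with a median of -0.008 over all genes. No gene passed the FDR in TS-R against WTS-R (0% called). Mki67 was then at 2.0 (SE 0.43) and Top2a at 1.84 (SE 0.31), each with an edgeR FDR of 0.0895, while Pcna (-0.07, SE 0.19), Gins2 (-0.06, SE 0.30) and Chek1 (-0.37, SE 0.37) were below 0.

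Leaving out other TS-R libraries moved the calls the other way. Without TS-R replicate 1, edgeR called 33 members higher (background 9.05%), and without TS-R replicate 4 it called 24 (background 5.76%); without TS-R replicate 2 it called none (background 0%). Without both libraries in which Xist was high, TS-R replicate 3 and NS-R replicate 3, a choice made after seeing the data, the medians were 1.13 and 0.68, and Top2a alone was called higher (log2 change 1.87, SE 0.32, edgeR FDR 0.0462; background 0.276%).

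**Figure D4:**
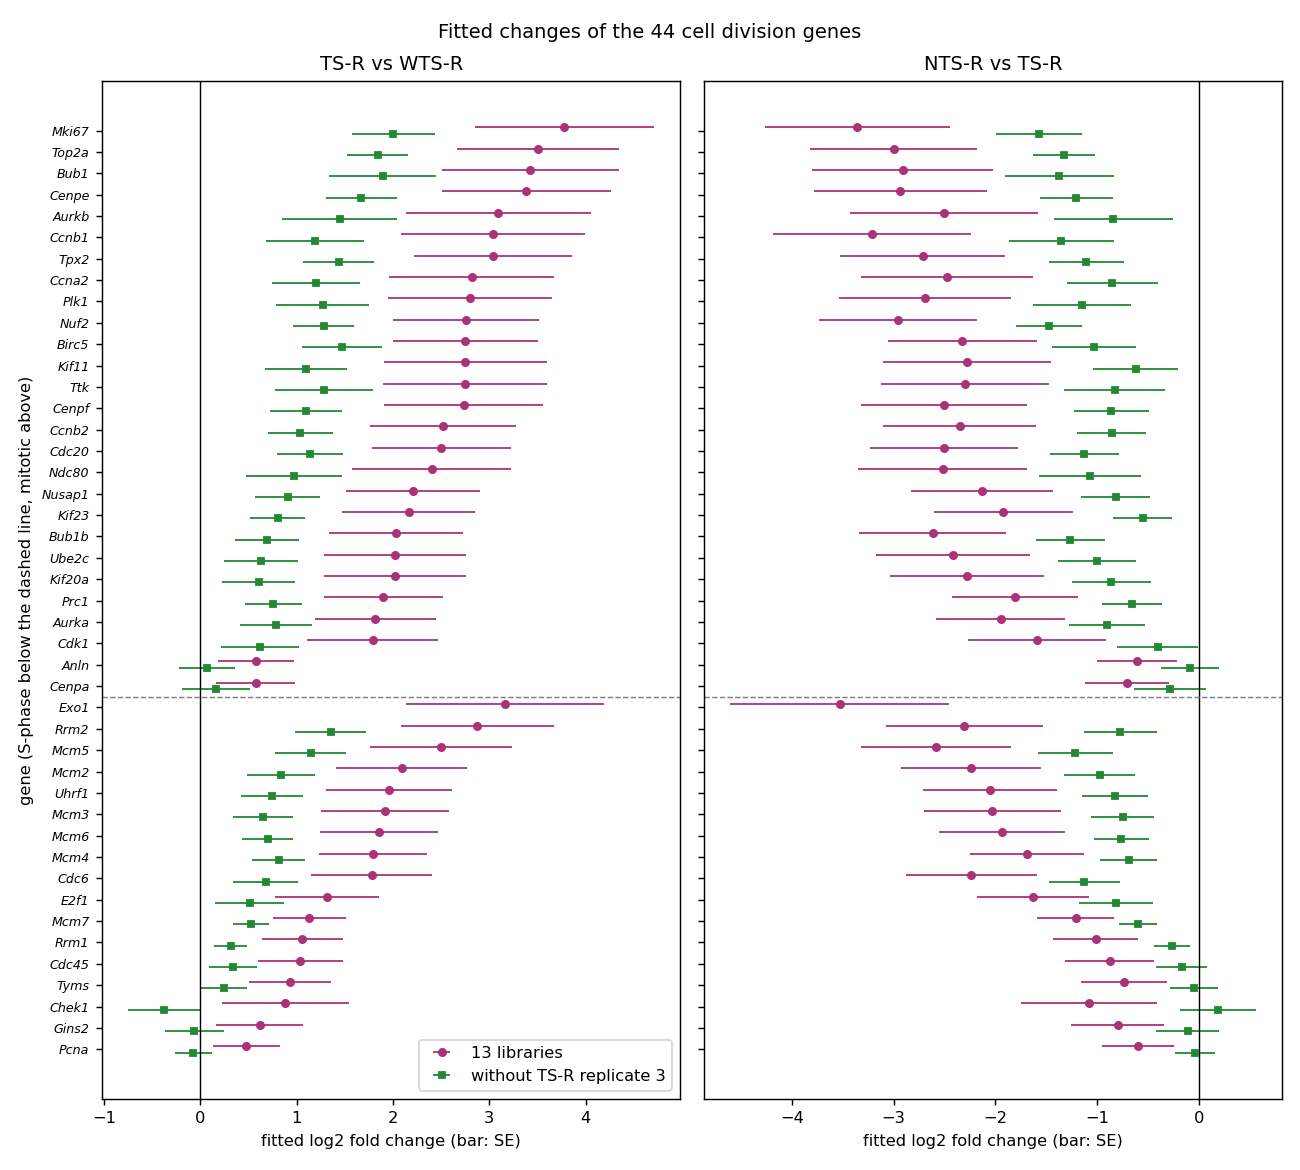
Fitted log2 fold change with its SE for each gene in 2 comparisons, TS-R with WTS-R (left) and NTS-R with TS-R (right), from the fit of 13 libraries (circles) and without TS-R replicate 3 (squares; no value for Exo1). Mitotic genes sit above the dashed line and S-phase genes below it; the squares lie nearer 0 than the circles for every gene shown.

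Recipients of diabetic Nlrp3 knockout cells had lower values than recipients of diabetic cells; the TS-R libraries enter this comparison and the last, which makes their values dependent. The fitted log2 change of NTS-R against TS-R was below 0 for 44 of the 44 genes (52.6% of all genes), with a median of -2.47 over the mitotic and -1.68 over the S-phase genes and -0.03 over all genes. The count includes Exo1, at -3.53 (SE 1.07), which did not pass the count filter without TS-R replicate 3. Among the other genes the change was lowest for Mki67 at -3.36 (SE 0.91) and Ccnb1 at -3.21 (SE 0.97), and nearest 0 for Pcna at -0.60 (SE 0.35) and Anln at -0.60 (SE 0.39). No member passed the edgeR FDR (0% called; 0.105 for Mki67 and Top2a), 37 were lower at an unadjusted p under 0.05 (25 mitotic, 12 S-phase; background 14.1%), and DESeq2 called 31 lower (20 mitotic, 11 S-phase; background 7.14%), and limma voom with quality weights 24 (background 7.28%). The groups did not overlap for 22 genes (17 mitotic, 5 S-phase), with NTS-R lower, against 6.82% of all genes. The 5 were Mcm5, Mcm7, Cdc6, Uhrf1 and E2f1. Without TS-R replicate 3 the medians were -0.90 and -0.72 (0.01 over all genes), 27 of 27 mitotic and 15 of 16 S-phase genes were below 0, and none was called (0%). Without TS-R replicate 1 edgeR called 19 members lower (background 5.75%) and without TS-R replicate 4 it called 15 (background 4.21%).

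The groups without donor diabetes were compared next, and no member passed a test. In NS-R against WTS-R the median log2 change was 0.43 over the mitotic and 0.09 over the S-phase genes, none had an unadjusted p under 0.05 by edgeR (background 4.92% higher and 0.388% lower), and DESeq2 called none (background 1.1% higher). All 27 mitotic changes of NS-R against WTS-R were above 0, the lowest that of Ccnb2 at 0.09. The median over all genes was 0.007 in this comparison, and the share of all genes above 0 is not given here. Without TS-R replicate 3 in the fit, all 27 mitotic genes and 13 S-phase genes were above 0, and 3 S-phase genes below. The median over all genes was then -0.008. NS-R was above WTS-R without overlap for 6 genes, Top2a, Cdc20, Plk1, Tpx2, Mcm4 and Rrm2 (background 7.53%), and below it for Pcna alone (background 7.13%). The largest change was that of Plk1, at 1.21 (SE 0.85, edgeR FDR 1). Between the Nlrp3 knockout donors, NTS-R against NS-R, the medians were -0.27 and -0.14, no gene of the 44 had an unadjusted p under 0.05 (background 1.25% higher and 5.11% lower) and DESeq2 called none (background 1.18% lower). The groups did not overlap for 6 genes, all lower in NTS-R (Ube2c, Plk1, Bub1b, Prc1, Cdc6 and Exo1; background 7.9%).

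The interaction asks whether the effect of donor diabetes differs between Nlrp3 knockout and wild-type donors: NTS-R minus NS-R, less TS-R minus WTS-R. Its median was -2.78 over the mitotic and -1.90 over the S-phase genes. No member passed the edgeR FDR (0% called; Mki67 -4.05, SE 1.24, FDR 0.154), 33 had an unadjusted p under 0.05, all negative (background 13.6%), and DESeq2 called 6: Mki67, Top2a, Ccnb1, Cdc20, Plk1 and Tpx2 (background 5.74%). Without TS-R replicate 3 the medians were -1.29 and -0.72, and 0.003 over all genes. Below 0 were then 27 of 27 mitotic and 14 of 16 S-phase genes. In the fit of 13 libraries, 53.5% of all genes were below 0.

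The balance between the 2 kinds of gene also differed between libraries. The S-phase level minus the mitotic level was 1.38 ± 0.09 in WTS-R (SD, n = 3), 1.16 ± 0.06 in NS-R (n = 3), 0.87 ± 0.25 in TS-R (n = 4) and 1.25 ± 0.25 in NTS-R (n = 3). The highest TS-R library, at 1.03, was below the lowest WTS-R library, at 1.29, and the lowest NS-R library, at 1.10. It was also below the lowest NTS-R library, at 1.05, but by less than the SD of the NTS-R group. Without TS-R replicate 3, which was at 0.50, the TS-R value was 0.99 ± 0.05 (SD, n = 3). In summed CPM, S-phase genes made up 72.2% ± 1.06 of the 44 genes in WTS-R, 65.6% ± 2.09 in NS-R, 59.6% ± 6.99 in TS-R and 70.0% ± 5.01 in NTS-R (SD), and 49.6% in TS-R replicate 3, the only library with more mitotic than S-phase CPM (1044 against 1027). By this share TS-R replicate 4, at 65.3%, lay above NS-R replicate 1, at 63.5%, so that TS-R and NS-R overlapped. Since low values are pulled together by the added 0.5, the size of the level difference depends on that number, and an addition of 2 brought WTS-R to 1.05 and TS-R to 0.76.

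The other cell cycle genes were taken from 3 more lists. Of 25 further mitotic genes, 23 were higher in TS-R than in WTS-R at an unadjusted p under 0.05 (background 15.2%) and 18 by DESeq2 (background 9.07%), with a median log2 change of 2.55. Of 24 further S-phase genes tested, 14 were higher at that p and 9 by DESeq2, with a median of 1.34. Of 20 genes of G1 and of cell cycle arrest, 5 were higher and 2 lower at that p, with a median of 0.19. Of all 17270 genes tested, 3843 passed that p in either direction, 2622 of them higher. None in these lists passed the edgeR FDR. The highest change of the 20 was that of Cdkn2a, at 2.81, with the same sign as the cell division genes. Cdkn1a, the CDK inhibitor p21, had the lowest change of the 20 and the opposite sign. It had 282, 363 and 230.4 CPM across WTS-R, 120.1, 162 and 155 in NS-R, 53.6, 31.7, 30.0 and 90.4 in TS-R, and 262, 85.3 and 87.1 in NTS-R, a log2 change of -2.5 in TS-R against WTS-R (SE 0.45, edgeR FDR 0.0624, DESeq2 adjusted p 8.27e-06).

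Markers of lymphocytes, plasma cells and lymph node were high in the same TS-R libraries as the cell division genes, and markers of neutrophils were above WTS-R and NTS-R in all of TS-R. Summed over 9 T cell markers, CPM was 27.2, 255, 599 and 73.9 in TS-R, against 11.4 to 15 in WTS-R, 14.1 to 27.7 in NS-R and 11.1 to 26.5 in NTS-R. Summed over 8 B cell markers, it was 20.5, 401, 1874 and 157 in TS-R, against 10.3 to 13.3 in WTS-R, 14.9 to 22.8 in NS-R and 7.32 to 40.5 in NTS-R. Replicates 3 and 2 were highest in both lists, the order they had for the mitotic level. Over 6 genes of lymph node venules and stroma the sums were 19.8, 379, 1569 and 73.9 in TS-R and 10.6 to 49.9 in the other groups. Glycam1, a ligand made by the venules through which lymphocytes enter lymph nodes, reached 962 CPM in replicate 3 of TS-R, 66.8 in replicate 2 and 8.10 in replicate 4, and was at no more than 0.116 in any other library. Over 6 plasma cell markers the sums were 234, 718, 2179 and 809 CPM in TS-R, against 129 to 323 in WTS-R, 231 to 359 in NS-R and 228 to 385 in NTS-R. Over 7 neutrophil and marrow myeloid markers they were 70.1, 247, 264 and 40.7 CPM in TS-R, against 3.79 to 15.7 in WTS-R and 6.04 to 9.3 in NTS-R, so that all 4 TS-R libraries, replicate 1 included, lay above both groups. NS-R lay on both sides, at 429.8, 761 and 10.1 CPM, of which Ltf, an iron-binding protein of neutrophil granules, made 424 and 749 in replicates 1 and 2. Markers of airway epithelium were also high in part of NS-R, with a median sum of 2656 CPM and a highest of 5703 CPM in replicate 2. The lowest NS-R sum was 0.476 CPM, and the highest in the other groups were 8.18 (TS-R), 0.578 (NTS-R) and 0.514 CPM (WTS-R). Which cells the Ltf of NS-R came from was not tested.

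Markers of the germinal centre, where B cells divide quickly, overlapped between groups in their sum. The list of 7 summed to 156, 128, 307 and 98.2 CPM in TS-R, against 115 to 227 in WTS-R, 177 to 188 in NS-R and 161 to 204 in NTS-R, and Bcl6 alone was at 57.6 to 189 CPM over the 13 libraries. The 7 thymocyte markers summed to 103 to 155 CPM in TS-R, 173 to 226 in WTS-R, 146 to 168 in NS-R and 152 to 257 in NTS-R, and Cd1d1, which many other cells make, was at 63.3 to 254 CPM. Cd8b1, which mature CD8 T cells also make, had 1.56, 24.1, 38.8 and 3.71 CPM across TS-R, above the 0.128 to 1.16 of WTS-R, 0.363 to 1.43 of NS-R and the NTS-R libraries. The defining genes Rag2 and Ptcra, chosen after their values were seen, were at no more than 0.0681 CPM and Rag1 at no more than 0.578 CPM in any library. TS-R replicate 1 had lymphocyte sums inside or just above the ranges of NS-R and NTS-R, and the highest skeletal muscle marker sum of all libraries (9231 CPM), and its mitotic level of 1.86 was above all 9 libraries of the other groups. The part of these markers in the group differences was not tested.

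**Figure D5:**
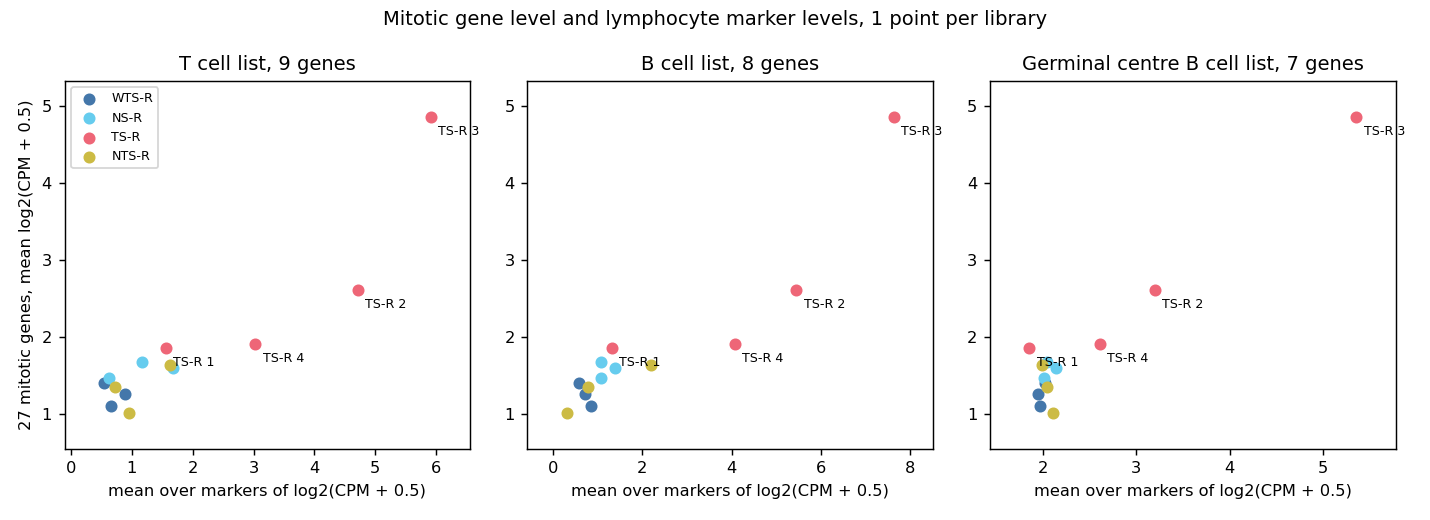
Mitotic level (mean log2(CPM + 0.5) of 27 genes, vertical axis) against the same mean of the T cell, B cell and germinal centre B cell markers (horizontal axes), with 1 point per library in group colours. TS-R replicates 3 and 2 lie at the upper right in each panel. TS-R replicate 1 lies above WTS-R and within the ranges of NS-R and NTS-R on the T cell and B cell axes, and at the lowest germinal centre value of all libraries (1.86).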

How the data were processed

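Gene counts of 13 libraries were analysed. Per the labels' protocols, RNA was taken with TRIzol and made into paired-end libraries with an ABclonal mRNA-seq kit. HISAT2 and featureCounts made the counts, per the submitters' processing notes; their versions and strand mode, the genome build and the annotation are not stated there, so reads of overlapping or antisense genes cannot be told apart. The deposited values are raw counts per gene, as whole numbers. Groups follow the sample titles.

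Counts were tested with edgeR 4.0.16 (R 4.3.3): filterByExpr, TMM scaling, and a single quasi-likelihood fit of all 13 libraries by group, which left 17270 genes, all 44 members among them. Calls used a Benjamini-Hochberg FDR under 0.05 over all genes tested. The spread between libraries was wide (common biological coefficient of variation 0.389, prior degrees of freedom 3.50), and every 2 libraries of a group differed by more than counting noise (lowest chi-square per degree of freedom 32.4). The scripts were tested on simulated data. DESeq2 1.42.0, limma 3.58.1 (voom with quality weights), other scaling, no filter, the compared groups alone, a replicate block and leaving out each library were alternatives. Levels are means of log2(CPM + 0.5). Lengths are merged exons of GENCODE M21, and promoters are RefSeq, GRCm38.p6.

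All 44 members may be named. Values in every library are given for the 2 members of each role class with the highest mean CPM and for those with the largest and smallest change in TS-R against WTS-R; values of other members were added for contrast after they were seen. The members and lists were chosen with earlier results of these data known.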

Additional observations from a re-analysis of the deposited data

Results flagged for a closer look

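In the TS-R group, 16 of the 23 results examined had a single library whose distance to its nearest neighbour, divided by the range of the 4 libraries, was above Dixon's 95% critical value for 4 samples. The library was TS-R replicate 3 in each case, as the highest. Chance alone flags about 1 in 20 groups of normally distributed values, which CPM need not be, so that rate may not hold here. The 16 share that library, so they are not separate observations. For the growth fraction genes the ratio was 0.918 (Mki67) and 0.933 (Top2a). For the cyclin and kinase genes it was 0.896 (Ccna2) and 0.859 (Cdk1), and for the anaphase-promoting complex partners 0.896 (Cdc20) and 0.870 (Ube2c). Checkpoint and passenger genes gave 0.887 (Bub1b) and 0.916 (Birc5), the kinetochore motor Cenpe 0.947, and the spindle genes 0.871 (Kif11) and 0.912 (Tpx2). In S phase the ratio was 0.887 (Mcm7), 0.870 (Mcm6), 0.886 (Cdc45), 0.909 (Rrm1) and 0.888 (Uhrf1). These 16 are CPM values. The other 7 results were not past it: on the log2 scale the S-phase level (0.732), the mitotic level (0.749) and their difference (0.825), and in CPM Cenpa (0.675), Cdc6 (0.823), Pcna (0.784) and E2f1 (0.780). Over all members in CPM, 36 of 44 were past the value.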

How the results depend on the processing

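Exo1, in part under the limit that a count of 0 allows, did not pass the count filter without TS-R replicate 3. Without that library the changes of Pcna, Gins2 and Chek1 in TS-R against WTS-R fell below 0, and that of Chek1 in NTS-R against TS-R rose to 0.19. The cause of each shift below was not tested.

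DESeq2 called 1566 genes higher and 340 lower in TS-R against WTS-R (32 members higher), 196 and 1233 in NTS-R against TS-R (31 members lower), 190 higher for NS-R over WTS-R, 4 and 204 for NTS-R over NS-R, and 95 and 991 for the interaction (6 members lower). Limma voom with quality weights called 2332 and 1484 in TS-R against WTS-R (31 members; medians 0.89 S-phase, 1.5 mitotic), 380 and 1258 in NTS-R against TS-R (24 members; mitotic median -1.48), 14 higher for NS-R over WTS-R, 12 lower for NTS-R below NS-R, and 621 and 1251 for the interaction (6 members; medians -0.77 and -1.72). With no count filter, edgeR called 824 and 65 (10 members), 16 and 388 (3 members), 137 and 1, 1 and 125, and 1 and 91 in the same order of comparisons. The groups compared alone gave 1 higher and 4 lower in NTS-R against NS-R.

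With the replicate number as a block, 619 genes were higher and 165 lower in TS-R against WTS-R (3 members: Birc5, Mki67 and Top2a; background 3.58%), 11 and 65 in NTS-R against TS-R, and 2 and 17 for the interaction. Whether the numbers pair the libraries was not settled by their correlations. Of 18 same-numbered pairs, 6 had a correlation over 0.1 (range -0.30 to 0.31), and 4 of 13 libraries correlated best with their own number. The median correlation of different-numbered pairs was 0.02.

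Without TS-R replicate 3 and NS-R replicate 3, chosen after seeing the data, 49 genes were higher and 1 lower in TS-R against WTS-R (1 member; medians 0.68 and 1.13). The medians of NTS-R against TS-R were then -0.78 and -0.93, 674 genes were higher for NS-R over WTS-R, 33 higher and 725 lower for NTS-R over NS-R, and 5 and 396 for the interaction (medians -0.75 and -1.30). An added 2 CPM made the S-phase level minus the mitotic level 1.05 in WTS-R, 0.90 in NS-R, 0.76 in TS-R and 0.96 in NTS-R.

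Leaving out each library in turn, TS-R against WTS-R gave 0 to 1543 genes higher, 0 to 363 lower, 0 to 33 members, and medians of 0.59 to 2.09 (S-phase) and 1.10 to 3.02 (mitotic). NTS-R against TS-R gave 0 to 160 higher, 0 to 981 lower, 0 to 19 members, and medians of -1.98 to -0.72 and -2.80 to -0.90. NS-R against WTS-R gave 0 to 503 higher, NTS-R against NS-R 0 to 7 higher and 0 to 556 lower, and the interaction 0 to 8 higher and 0 to 510 lower, with medians of -2.19 to -0.72 and -3.11 to -1.29.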
